A study of Mus musculus with 10 samples.

Results

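The mouse mitochondrial chromosome carries 37 genes. All were looked for in the RNA-seq libraries of tagged and mock hippocampal cells described here, and 10 of them had no count in any library. The 37 were chosen by their symbols, which begin with mt-, among the 53379 gene entries, and comprise 2 rRNA genes, 13 protein-coding genes and 22 tRNA genes. Counts on these genes made up between 2.13% and 14.9% of all gene counts of a library. Both libraries of cells tagged during foot shock held a larger mitochondrial share than every untagged library, whereas the libraries of cells tagged during female exposure lay on either side of the untagged ones. Of the 13 protein-coding genes, 7 carried nearly all of the counts, and each of the other 6 had at most 67 counts over the 10 libraries together.

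The mitochondrial chromosome is transcribed from both strands into long precursors. The tRNA genes lie between most of the rRNA and protein-coding genes, and their excision releases the rRNAs and mRNAs, to which short poly(A) tails are then added. mt-Rnr1 and mt-Rnr2 encode the RNAs of the small and large subunits of the mitochondrial ribosome. The protein-coding genes encode core subunits of respiratory complexes I, III, IV and V, which are assembled with subunits made from nuclear genes, and neurons depend on this chain for most of their ATP.

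Cells were tagged with EYFP by a pair of AAV9 viruses, c-Fos-tTA and TRE-ChR2-EYFP. The c-Fos promoter makes the tetracycline transactivator tTA, so that cells active while doxycycline is withheld make a ChR2-EYFP fusion. The tag reports activity of the c-Fos promoter in infected cells, of any type. The labels give male mice 5 weeks old, with 8 mice pooled per experimental condition, whereas the study's methods give 2 mice for the mock control. The study's methods name wild-type C57BL/6 mice, and the labels name no strain. There were 2 aversive libraries (numbers 1 and 3, from mice given 4 foot shocks of 1.5 mA and 2 s), 2 appetitive libraries (numbers 1 and 2, from mice that met a female, for 1 h by the labels), 3 neutral libraries (from mice that stayed in the conditioning cage with neither event) and 3 mock libraries (home cage mice, which the study calls untagged). The aversive, appetitive and mock libraries were labelled as polyA RNA and read as single ends of 40 bases. The neutral libraries were labelled as total RNA, came from another version of the kit and were read as paired ends of 100 bases. What distinguishes the neutral libraries by experience and by preparation therefore cannot be told apart. The mock libraries differ from the others in tagging as well as in experience and, by the study's methods, in the number of mice. In comparisons with mock these cannot be told apart either. The labels call the sorted material cells, and the study calls it nuclei in 1 place and cells in another, so the cytoplasm that the sorted particles kept is not known.

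Total counts ranged from 16968588 to 67650693 per library, and between 8739 and 24496 genes had more than 3 counts, with the lowest numbers, 8739 and 10517, in the appetitive libraries. A set of 10 neuronal marker genes summed to between 0.00857% and 0.0744% of the counts, while 6 oligodendrocyte markers summed to between 0.923% and 38.5%. Mbp, the major myelin protein gene, alone took 20.4% to 30.8% of the counts in mock 1, mock 2, aversive 1 and appetitive 1 and 0.601% to 3.37% in the other 6 libraries. Ttr, a marker of the choroid plexus, took 2.65% to 13.6% in the neutral libraries and at most 0.971% elsewhere. In bulk libraries, fewer cells of a type and less RNA per cell cannot be told apart.

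The counts did not see all of the mitochondrial genes alike, since parts of the chromosome have near-identical copies in the nuclear genome. The sequence of each mitochondrial gene was divided into all of its 40-base windows, the length of read that the study mapped, and each window was searched for in the other annotated transcripts on both strands. A block of 7 annotated pseudogenes on chromosome 1 (GRCm38, chr1:24611535-24616197, minus strand) runs parallel to positions 6381 to 11042 of the mitochondrial chromosome. Over the 4149 bases of these copies, 7 bases differed from the mitochondrial sequence. Of these, 6 fell in the first few bases of Gm29216, the copy of the end of mt-Co1, and 1 in Gm28438, the copy of mt-Nd3. The stretches below show why reads from these genes can be ambiguous. Bases that differ between a gene and its copy are in capitals, the mitochondrial stretches are on the plus strand and the copies on the minus strand of chromosome 1, and each is written 5′ to 3′ from the GENCODE M21 transcripts (GRCm38).

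For mt-Co1, a catalytic core subunit of complex IV, the stretch at chrM:6381-6480 is set against Gm29216 at chr1:24616098-24616197, where the 6 differences are T6383A, C6384T, A6386G, A6387G, C6389A and A6393T, counted from the first base of the mitochondrial chromosome.
mt-Co1: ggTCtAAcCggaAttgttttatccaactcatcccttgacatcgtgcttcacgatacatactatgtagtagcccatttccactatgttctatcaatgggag
Gm29216: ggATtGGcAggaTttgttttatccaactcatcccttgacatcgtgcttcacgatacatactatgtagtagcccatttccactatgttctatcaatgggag

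For mt-Atp6, a subunit of the proton channel of ATP synthase (complex V), the first 60 bases at chrM:7927-7986 and those of Gm10925 at chr1:24614592-24614651 are the same, so nothing is in capitals.
mt-Atp6: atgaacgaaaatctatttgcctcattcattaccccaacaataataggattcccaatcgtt
Gm10925: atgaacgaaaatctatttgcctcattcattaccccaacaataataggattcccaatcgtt

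For mt-Nd3, a membrane subunit of complex I, the first 60 bases at chrM:9459-9518 differ from Gm28438 at chr1:24613060-24613119 by T9461C, at base 3 of the gene.
mt-Nd3: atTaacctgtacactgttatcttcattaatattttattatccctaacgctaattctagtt
Gm28438: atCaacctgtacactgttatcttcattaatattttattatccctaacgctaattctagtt

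In mt-Co2, mt-Atp6, mt-Co3, mt-Nd3 and mt-Nd4l, between 98.1% and 100% of the windows also occurred in a nuclear transcript. These 5 genes had 3, 0, 12, 67 and 0 counts over the 10 libraries. mt-Atp8, the small subunit of ATP synthase that lies between mt-Co2 and mt-Atp6 and overlaps the latter, had 0 counts as well. Only 2.42% of its windows were in an annotated transcript, but it falls inside the span that the chromosome 1 block parallels. In mt-Co1 and mt-Nd4, 57.0% and 62.5% of the windows had a copy, and the remaining 648 and 502 windows touch no other gene and have no annotated copy. How reads from the copied windows were counted is not known. The copies of the chromosome 1 block took few counts, with 20 to 997 counts per library on the 7 pseudogenes together, against 361758 to 6328923 on the mitochondrial genes. Annotated copies elsewhere took more in some libraries. On chromosome 2, Gm13340, which shares 524 windows with mt-Co1, had 68 to 3137 counts per library. Gm13341, which shares 264 windows with mt-Co2, had 9 to 1302. The few counts of the 5 copied genes therefore cannot be read as RNA levels, and for mt-Atp8 the cause of the 0 counts was not tested.

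**Figure D1:**
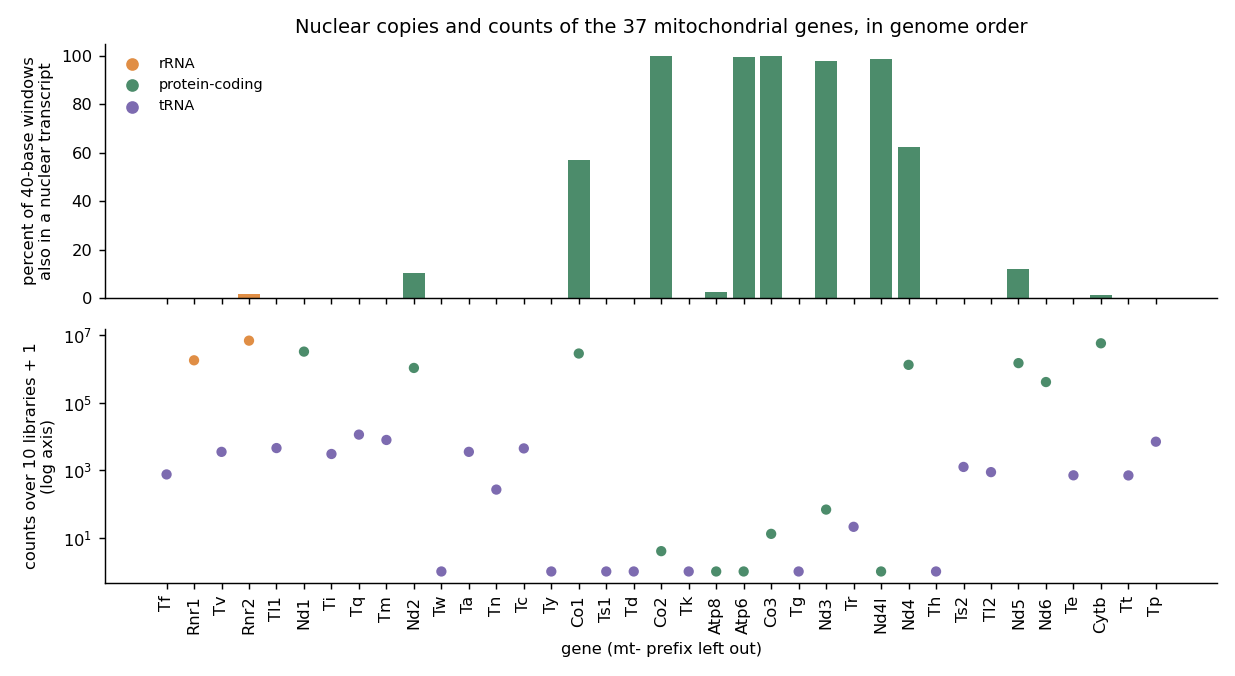
Share of each gene's 40-base windows that also occur in an annotated nuclear transcript (bars, percent) and the gene's counts summed over the 10 libraries plus 1 (points, log axis), for the 37 genes in chromosome order and coloured by class. mt-Co2, mt-Atp6, mt-Co3, mt-Nd3 and mt-Nd4l, with 98.1% to 100% of windows copied, had 0 to 67 counts, while the other long genes except mt-Atp8 had 407112 or more.

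mt-Nd3 and its copy showed a pattern that set 1 library apart. mt-Nd3 had 63 counts in mock 1, 1 in mock 3, 3 in aversive 3 and 0 in the other 7 libraries. Gm28438 had 0 counts in mock 1, and 101 in mock 2, 267 in mock 3, 94 and 571 in aversive 1 and 3, 115 and 10 in appetitive 1 and 2, and 922, 119 and 223 in neutral 1, 2 and 3. The library that had counts on the gene thus had none on the copy, and the reverse held in 7 of the other 9 libraries. The base that the reads carried at position 9461 was not analysed here, and the cause was not tested. Adding the counts of all the chromosome 1 copies to the mitochondrial genes left the share of every library the same to 3 digits.

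Among the genes that could be counted, the mitochondrial share of all counts was 3.98%, 4.63% and 2.75% in mock 1 to 3, and 7.46% and 14.9% in aversive 1 and 3. It was 7.997% in appetitive 1 and 2.13% in appetitive 2. In neutral 1 to 3 it was 10.5%, 3.01% and 4.09%. Both aversive libraries lay above all 3 mock libraries, and every other pair of groups overlapped. The group means were 3.79% ± 0.954 in mock (SD, n = 3), 11.2% ± 5.23 in aversive (SD, n = 2), 5.06% ± 4.15 in appetitive (SD, n = 2) and 5.88% ± 4.07 in neutral (SD, n = 3). Counting error was small beside these spreads, since the exact 95% binomial interval of the shallowest library, appetitive 2, ran from 2.125% to 2.139%. Intervals of this kind cover counting error only, because reads amplified from 1 molecule are counted as several.

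**Figure D2:**
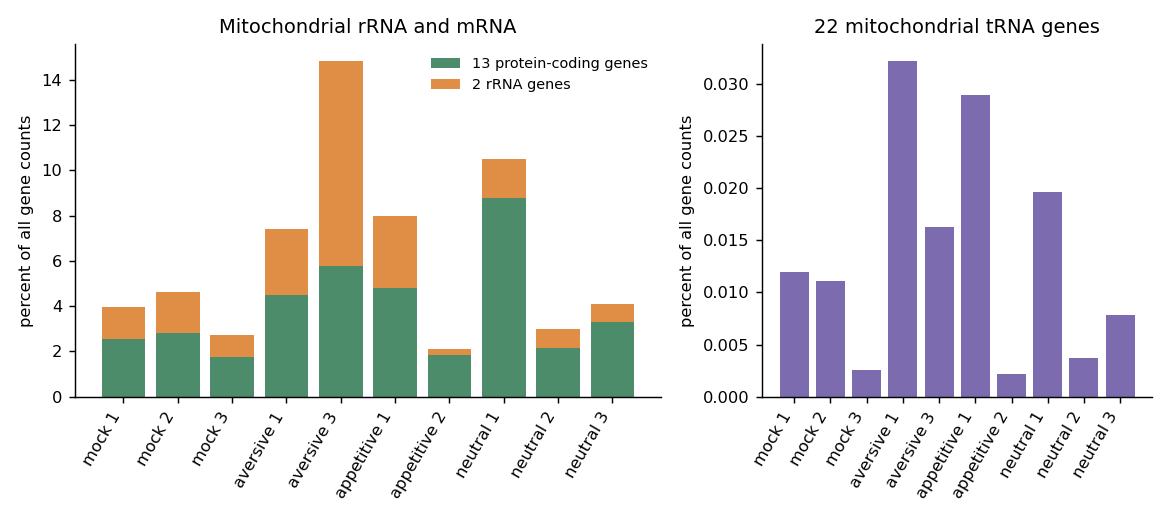
Share of all gene counts (percent) taken by the 13 protein-coding and 2 rRNA genes (left, stacked) and by the 22 tRNA genes (right) in each library. Both aversive libraries, at 7.46% and 14.9% over all classes, stand above the 3 mock libraries, and appetitive 1 and 2 lie apart at 7.997% and 2.13%.

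The position of the aversive above the mock libraries did not rest on the denominator. When the 10 nuclear genes with the most counts in each library were left out of its total, the shares were 12.1% and 16.2% in aversive and 3.08% to 7.12% in mock libraries. Those 10 genes held 38.5% of the counts in aversive 1 and 8.49% in aversive 3. Against counts of protein-coding genes only, the mitochondrial mRNAs took 4.69% and 6.64% in aversive and 1.78% to 2.89% in mock libraries. With TMM-normalized library sizes the shares were 10.1% and 11.6% against 1.89% to 4.94%. Appetitive 1 exceeded every mock library with each of these denominators, at 4.98% to 16.6%, whereas appetitive 2 was below every mock library without the top nuclear genes (2.47%), level with mock 3 on the TMM scale (1.89%), and between mock 3 and the other mock libraries with protein-coding counts (1.91%).

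The 2 rRNAs, which are the most abundant products of the chromosome in most tissues, spanned a wider range between libraries, relative to their lowest value, than the mRNAs or the tRNAs. As a share of all counts they took 1.40%, 1.80% and 1.01% in mock 1 to 3, 2.92% and 9.08% in aversive 1 and 3, 3.18% and 0.278% in appetitive 1 and 2, and 1.72%, 0.869% and 0.774% in neutral 1 to 3. Again only the aversive libraries stood clear of the mock libraries, and they also stood above all 3 neutral libraries. The lowest and the highest value of the 10 belonged to appetitive 2 and aversive 3, which were made with the same kit.

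mt-Rnr2, the 16S rRNA of the large subunit (chrM:1094-2675), had the most counts of any gene, nuclear or mitochondrial, in aversive 3. In RPKM (counts scaled to gene length in kb and to the library's total), its level was 7337, 9151 and 5721 in mock 1 to 3, 14544 and 45932 in aversive 1 and 3, 16127 and 1492 in appetitive 1 and 2, and 8687, 3937 and 3210 in neutral 1 to 3. mt-Rnr1, the 12S rRNA of the small subunit (chrM:70-1024), was at 2480, 3682 and 1097 RPKM in mock, 6525 and 19017 in aversive, 6624 and 443 in appetitive, and 3634, 2581 and 2787 in neutral libraries. For both rRNAs the aversive libraries lay above all mock libraries (8.18% of all tested genes) and all neutral libraries (11.1%), and appetitive 2 was the lowest of the 10. Their ratio was not fixed. mt-Rnr2 stood at 2.49 to 5.22 times mt-Rnr1 per kb in mock, 2.23 and 2.42 times in aversive, 2.43 and 3.37 times in appetitive, and 2.39, 1.53 and 1.15 times in neutral libraries.

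The part of the mitochondrial counts that was rRNA separated the neutral from the mock and aversive libraries. It was 35.1%, 38.9% and 36.7% in mock 1 to 3, a narrow range (36.9% ± 1.87, SD, n = 3), and 39.2% and 61.2% in aversive 1 and 3. In the neutral libraries it was 16.3%, 28.9% and 18.9% (21.4% ± 6.61, SD, n = 3), below every mock and aversive library. The appetitive libraries were at 39.8% and 13.1%, just above the mock libraries and below all of the neutral ones. A difference in kit and in RNA fraction goes with the neutral group, and its part in the result was not tested. With mt-Rnr2 left out, mt-Rnr1 took 5.68% to 11.1% of its own and the protein-coding counts in mock, 12.2% and 23.996% in aversive, 2.23% and 11.7% in appetitive and 3.80% to 10.3% in neutral libraries, so that mock and neutral libraries then overlapped.

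The 13 protein-coding genes together took 2.57%, 2.82% and 1.74% of all counts in mock 1 to 3, 4.50% and 5.75% in aversive 1 and 3, 4.78% and 1.85% in appetitive 1 and 2, and 8.79%, 2.14% and 3.31% in neutral 1 to 3. Neutral 1 held the most mitochondrial mRNA and aversive 3 the most rRNA. As for the rRNAs, the aversive libraries lay above all mock libraries, and the neutral libraries reached both below and above the aversive ones.

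mt-Cytb (chrM:14145-15288) encodes cytochrome b, the only subunit of complex III made in mitochondria. It was at 7151, 8203 and 5629 RPKM in mock, 12884 and 16318 in aversive, 12459 and 6230 in appetitive, and 28045, 7598 and 11334 in neutral libraries. It was the highest protein-coding gene per length in 10 of 10 libraries. The appetitive libraries lay below both aversive ones without overlap, as they did for 22.2% of all tested genes. mt-Co1 (chrM:5328-6872), the catalytic subunit of complex IV, was at 2421, 2571 and 2407 RPKM in mock, 5072 and 5662 in aversive, 5850 and 1993 in appetitive, and 10559, 2737 and 3666 in neutral libraries. Its 3 mock values were the closest together of the 9 rRNA and mRNA genes that could be counted. Both the aversive and the neutral libraries lay above them, as they did for 8.18% and 16.5% of all tested genes.

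Of the 7 complex I genes on the chromosome, 5 could be counted. mt-Nd1 (chrM:2751-3707), which encodes the subunit at the base of the membrane arm, was at 7119, 7340 and 3142 RPKM in mock, 10540 and 11408 in aversive, 11287 and 4070 in appetitive, and 18256, 3614 and 6814 in neutral libraries. mt-Nd2, mt-Nd4 and mt-Nd5 encode the antiporter-like subunits of that arm, which move protons. mt-Nd2 (chrM:3914-4951) was at 2179, 2546 and 1031 RPKM in mock, 3527 and 4874 in aversive, 4348 and 1312 in appetitive, and 4279, 1022 and 1698 in neutral libraries. mt-Nd4 (chrM:10167-11544) was at 1840, 2031 and 871 RPKM in mock, 3374 and 5074 in aversive, 3980 and 1232 in appetitive, and 3876, 1009 and 1529 in neutral libraries. For these genes mock 3 was the lowest mock library, and the neutral libraries overlapped every other group.

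mt-Nd5 (chrM:11742-13565), the longest gene of the chromosome, was at 912, 1020 and 876 RPKM in mock, 1629 and 2840 in aversive, 1529 and 555 in appetitive, and 5460, 1134 and 1744 in neutral libraries. mt-Nd6 (chrM:13552-14070) is the only protein-coding gene read from the other strand, and its end overlaps that of mt-Nd5. It was at 920, 970 and 674 RPKM in mock, 2038 and 3775 in aversive, 1853 and 658 in appetitive, and 4485, 944 and 1705 in neutral libraries. For both genes the aversive libraries lay above the mock libraries (8.18% of all tested genes) and above the appetitive libraries (22.2%). For mt-Nd5 the neutral libraries lay above the mock libraries as well (16.5%). Counting ignored strand, so RNA of mt-Nd6 and RNA transcribed from the opposite strand of that stretch cannot be told apart.

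**Figure D3:**
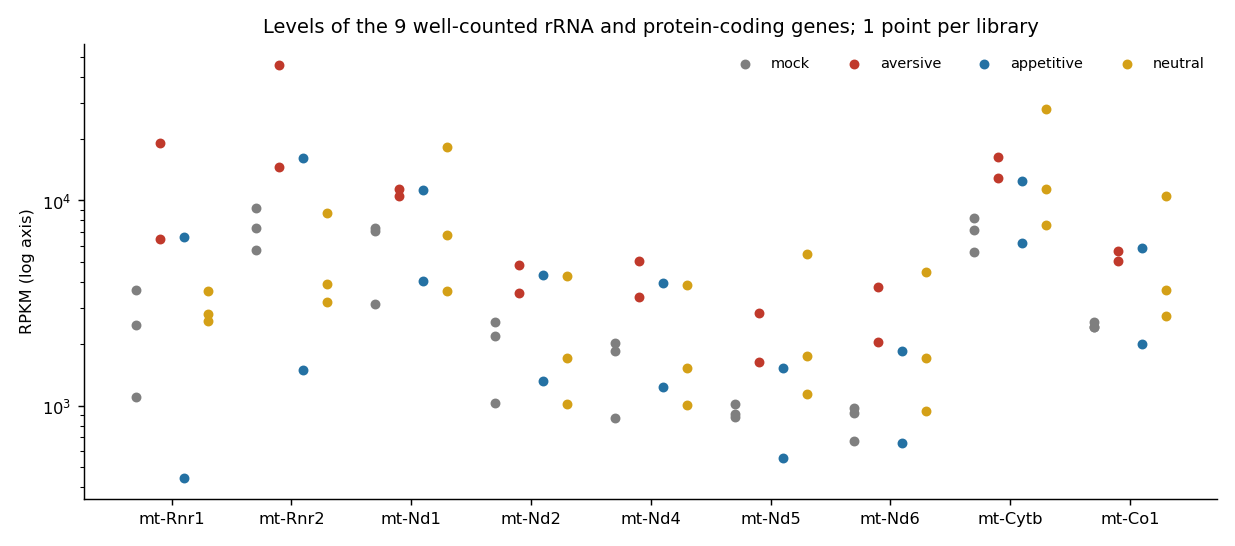
Levels of both rRNA and the 7 countable protein-coding genes in RPKM (counts scaled to gene length and library total, log axis), with 1 point per library and groups by color. For all 9 genes both aversive points lie above the mock points, as they do for 8.18% of all tested genes. For mt-Rnr1 and mt-Rnr2 appetitive 2 is the lowest point.

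The order of the genes by level depends on what is counted as their length. Per annotated length, over the 10 libraries together, the order was mt-Cytb, mt-Rnr2, mt-Nd1, mt-Rnr1, mt-Co1, mt-Nd2, mt-Nd4, mt-Nd5 and mt-Nd6. Per window that touches no other mitochondrial gene and has no nuclear copy, mt-Co1 rose from place 5 to place 3 with 4392 counts per window and mt-Nd4 from place 7 to place 5 with 2617. mt-Cytb stayed first with 5242 counts per window, and mt-Nd6 last with 874. This order, from counts summed over libraries of unequal depth, did not hold in each library, as mt-Rnr2 was first of the 9 per length in 6 libraries and mt-Cytb in the other 4. mt-Rnr1 ranged from place 2 in aversive 3 to place 9 in appetitive 2 and neutral 1, and mt-Nd6 was last per window in 5 of the 10 libraries.

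Relative to each other the mRNAs differed most between the neutral libraries and all the rest. mt-Nd2 made up 4.96% to 5.33% of the protein-coding counts in neutral libraries and 6.16% to 9.43% in the other 7. mt-Nd4 likewise made up 6.07% to 6.50% against 6.90% to 12.2%. mt-Nd5 went the other way, with 9.61% to 11.3% in neutral libraries and 5.47% to 9.20% elsewhere. For these 3 genes the neutral libraries did not overlap the others, and mock 3 was the nearest of the others to them each time. mt-Cytb made up the largest part in every library, between 29.8% and 40.6%, mt-Nd1 16.2% to 26.5% and mt-Co1 14.1% to 21.4%, and in these genes the neutral libraries overlapped the others. The other preparation of the neutral libraries goes with these differences too, and its part was not tested.

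**Figure D4:**
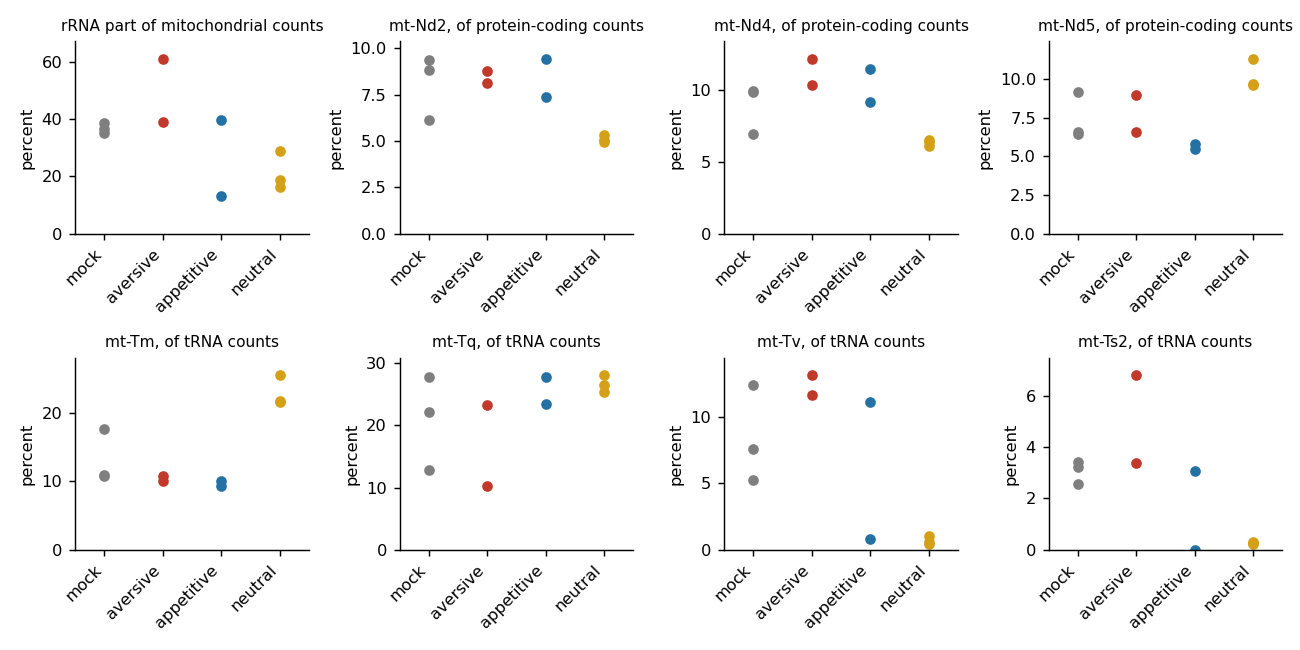
Makeup of the mitochondrial counts, 1 point per library: the rRNA part of all mitochondrial counts, the part of the protein-coding counts on mt-Nd2, mt-Nd4 and mt-Nd5, and the part of the tRNA counts on mt-Tm, mt-Tq, mt-Tv and mt-Ts2 (percent, each axis from 0). The 3 neutral points lie below all others for mt-Nd2 and mt-Nd4 and above all others for mt-Nd5 and mt-Tm.

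The 22 tRNA genes took very few counts, between 0.00216% and 0.0322% of a library's total. Mature tRNAs carry no poly(A) tail, on which kits of this kind prime. Of the 22 genes, 15 had a count in at least 1 library and 7 had none in any: mt-Tw, mt-Ty, mt-Ts1, mt-Td, mt-Tk, mt-Tg and mt-Th. mt-Td, mt-Tg and mt-Th, for aspartate, glycine and histidine, are the first 3 of them by symbol. mt-Ts1, mt-Td, mt-Tk and mt-Tg lie in the span that the chromosome 1 block parallels, as does mt-Tr, for arginine, which had 20 counts, 11 of them in mock 1. mt-Tw and mt-Ty lie between mt-Nd2 and mt-Co1, which have neighbouring annotated copies on chromosome 2, Gm13339 and Gm13340. No window of mt-Tw or mt-Ty occurred in an annotated nuclear transcript. Between them lie mt-Ta, mt-Tn and mt-Tc, which had 3486, 265 and 4410 counts over all libraries. The cause of the 0 counts of mt-Tw and mt-Ty was not tested. For mt-Th, which lies outside both spans, a count of 0 in the deepest library, neutral 2, allows a level of up to 0.0443 CPM. No such limit is given for the others, since how reads from these spans were counted is not known.

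The 3 tRNA genes with the most counts were mt-Tq, mt-Tm and mt-Tp, for glutamine, methionine and proline. mt-Tq had 973, 505 and 166 counts in mock 1 to 3, 2038 and 652 in aversive 1 and 3, 1800 and 102 in appetitive 1 and 2, and 2997, 673 and 1381 in neutral 1 to 3. As a part of the tRNA counts it was at 25.4% to 28.0% in neutral libraries and 10.2% to 27.8% in the others. mt-Tm had 383, 246 and 228 counts in mock, 942 and 643 in aversive, 720 and 37 in appetitive, and 3018, 548 and 1075 in neutral libraries. It made up 21.6% to 25.6% of the tRNA counts in the neutral libraries and 9.34% to 17.7% in the other 7, with no overlap. mt-Tp had 604, 345 and 120 counts in mock, 1404 and 1089 in aversive, 1419 and 100 in appetitive, and 1029, 189 and 668 in neutral libraries.

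A pair of tRNA genes outside the rule for naming genes, mt-Tv for valine and mt-Ts2 for serine, was singled out after the values were seen, because they had the largest differences among the members. mt-Tv had 265, 284 and 68 counts in mock, 1150 and 743 in aversive, 859 and 3 in appetitive, and 55, 27 and 28 in neutral libraries. This is 5.27% to 13.1% of the tRNA counts in mock and aversive libraries and 0.466% to 1.06% in neutral libraries, with appetitive 1 at 11.1% and appetitive 2 at 0.817%. mt-Ts2 had 113, 78 and 33 counts in mock, 295 and 434 in aversive, 237 and 0 in appetitive, and 36, 7 and 12 in neutral libraries. This is 2.56% to 6.80% of the tRNA counts in mock and aversive libraries and 0.244% to 0.305% in neutral libraries. As parts of the tRNA counts, the neutral libraries lay below all mock and aversive libraries for both genes, and appetitive 2, which had only 367 tRNA counts in all, sat with them. The sequences below show where these genes lie, since each touches a neighbour without a base between, with the tRNA gene in capitals and up to 20 bases of the neighbours in lower case (plus strand, GENCODE M21 transcripts, GRCm38). mt-Tv joins the rRNA genes at chrM:1005-1113, mt-Tm is followed by mt-Nd2 at chrM:3845-3933, and mt-Ts2 follows mt-Th at chrM:11593-11671.
mt-Rnr1, mt-Tv and mt-Rnr2: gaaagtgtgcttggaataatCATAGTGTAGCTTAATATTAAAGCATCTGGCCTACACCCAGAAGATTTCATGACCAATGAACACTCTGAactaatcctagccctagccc
mt-Tm and mt-Nd2: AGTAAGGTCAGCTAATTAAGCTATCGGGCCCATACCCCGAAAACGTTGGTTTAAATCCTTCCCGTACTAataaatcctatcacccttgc
mt-Th and mt-Ts2: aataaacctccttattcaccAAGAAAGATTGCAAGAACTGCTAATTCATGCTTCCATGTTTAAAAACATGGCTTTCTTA

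Whether single mitochondrial genes differed between the groups was tested with edgeR over 19754 genes and all 10 libraries. Of the 37 members, 23 passed the filter on low counts (both rRNAs, the 7 countable mRNAs and 14 tRNAs), and the other 14 were not tested. At an adjusted p under 0.05, 0 of the 23 were called in each of the 6 comparisons. The share of all tested genes called was 0.0405% for aversive against neutral, 6.17% for appetitive against neutral, 1.8% for appetitive against aversive, 0% for aversive against mock, 1.98% for appetitive against mock and 0.0861% for neutral against mock (0.00506% higher and 0.081% lower). Replicate libraries differed strongly, with a common biological coefficient of variation of 122.09%, and in simulated data of this kind 44 of 194 genes changed 64-fold were called. With 2 or 3 libraries per group and nothing in the labels on whether the pools were independent, these p-values measure only the spread between libraries, which may be technical. A 0 here therefore does not show that the groups were alike.

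At an unadjusted p under 0.05, 3 members passed in aversive against neutral, where 19.1% of all tested genes did. mt-Tv was higher in aversive by 6.14 ± 2.01 (log2 fold change, SE, adjusted p = 0.174 in edgeR), mt-Ts2 by 5.44 ± 2.29 (adjusted p = 0.240) and mt-Rnr2 by 2.59 ± 0.986 (adjusted p = 0.207). In appetitive against neutral, 2 members passed, against 29.3% of all genes, mt-Tv at 6.03 ± 2.00 (adjusted p = 0.0838) and mt-Ts2 at 5.10 ± 2.25 (adjusted p = 0.162). Appetitive 2 had 3 counts of mt-Tv and 0 of mt-Ts2, a smaller share of its total than in every neutral library. The estimates for both genes in this comparison, and the DESeq2 calls of them below, therefore came from appetitive 1 alone. In neutral against mock, 1 member passed against 13.5% of all genes, mt-Tv at -4.09 ± 1.78 (adjusted p = 0.347), and in the 3 remaining comparisons 0 passed, against 20% of all genes for appetitive against aversive, 9.96% for aversive against mock and 23.8% for appetitive against mock. DESeq2 called mt-Tv and mt-Ts2 in aversive against neutral and in appetitive against neutral, where it called 15.8% and 28.2% of the genes to which it gave an adjusted p, and 0 members in the other 4 comparisons, where it called 23.3% for appetitive against aversive, 8.07% for aversive against mock, 27% for appetitive against mock and 7.85% for neutral against mock. Without the filter on low counts edgeR called mt-Rnr1, mt-Rnr2 and mt-Tv in aversive against neutral (2.45% of all genes) and in appetitive against neutral (7.19%), mt-Rnr1 and mt-Rnr2 in aversive against mock (0.0284%), mt-Rnr2 and mt-Co1 in appetitive against mock (3.19%), each as higher in the tagged group named first, and 0 members in appetitive against aversive (3.6%) and neutral against mock (1.47%). The calls with the appetitive group came from appetitive 1, which lay above all libraries of the other group for each gene. Scaled by library total alone, without the TMM factors of the fit, appetitive 2 lay below all of them. For example, it was at 1492 RPKM for mt-Rnr2 and 1993 for mt-Co1 against at least 5721 and 2407 in mock.

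The estimates for the members leaned one way even though none was called. In aversive against mock all 23 log2 fold changes were positive, from 0.90 to 2.24, with a median of 1.66 against -0.13 over all tested genes. mt-Rnr1 had the lowest adjusted p at 2.24 ± 1.05 (0.495 in edgeR). In appetitive against mock all 23 were positive as well, from 1.00 to 2.39, with a median of 1.56 against -1.45 over all tested genes. mt-Co1 had the lowest adjusted p there, at 1.54 ± 0.808 (0.253 in edgeR). These comparisons share the mock libraries, so that their directions are not independent. In appetitive against mock the median rested on 1 library, as it was -2.32 without appetitive 1 and 2.24 without appetitive 2, and in aversive against mock it was 0.83 without aversive 1 and 1.73 without aversive 3.

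In aversive against neutral the median of the 23 was 1.25 against -0.15 over all tested genes, with 21 positive. In appetitive against neutral it was 1.47 against -0.91, with 21 positive, and -1.93 without appetitive 1. Without neutral 1 these medians were 2.19 and 2.26. The protein-coding members differed less than the tRNAs in both, with medians of 0.43 and 0.47 for the 7 mRNAs and of 1.79 and 1.73 for the 14 tRNAs. In neutral against mock the median was 0.11 against 0.08, with 14 positive and 9 negative, and it was 0.99 for the mRNAs and -0.26 for the tRNAs. In appetitive against aversive it was 0.05 against -0.48, with 13 positive and 10 negative. The sign of the last 2 medians changed with single libraries and with the processing. In neutral against mock the median was -0.82 without neutral 1, -0.37 without mock 3, -0.10 without aversive 1, -0.06 with a replicate block or with no filter on low counts, and -0.11 in a fit of both groups alone. In appetitive against aversive it was -3.80 without appetitive 1, 0.84 without appetitive 2, -0.32 without aversive 3, 0.50 without aversive 1, -0.11 without mock 1 or mock 2, and -0.81 against -0.87 over all tested genes when libraries were scaled by size alone. It was also -0.58 with a replicate block and -0.45 over the 17 members with at least 10 counts in every library.

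Compared as shares of total counts, library by library, 19 of the 23 tested members were higher in both aversive libraries than in all mock libraries, where 8.18% of all tested genes were. The 4 members that overlapped were mt-Ti, mt-Tq, mt-Tn and mt-Tt, and 0 were lower in both, where 24.3% of all tested genes were. All members of a library share its total and its cells, so that these are not 19 independent observations. In aversive against neutral 9 members were higher with no overlap, where 11.1% of all genes were, and 0 were lower, where 21.8% of all genes were. In neutral against mock 4 were higher (mt-Co1, mt-Nd5, mt-Tn and mt-Te), where 16.5% of all genes were. mt-Tv and mt-Ts2 were lower in all neutral than in all mock libraries, as were 13.4% of all genes. In appetitive against aversive, 4 were lower with no overlap (mt-Cytb, mt-Nd5, mt-Nd6 and mt-Ts2), where 22.2% of all genes were, and 0 were higher, where 5.29% were. In appetitive against neutral 0 members were free of overlap, where 6.37% of all genes were higher and 31.3% lower, and in appetitive against mock 0 were, where 5.11% were higher and 41% lower.

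A few of the nuclear genes that act on mitochondrial RNA were called lower by edgeR in the comparisons that involve the appetitive libraries. Of 34 symbols for the transcription and RNA-processing machinery of mitochondria, 33 matched a gene and all 33 were tested. In appetitive against neutral 5 were lower, where 5.23% of all tested genes were, and 0 higher, where 0.937% were: Grsf1, Nrf1, Fastkd3, Polrmt and Ppargc1a. Polrmt encodes the mitochondrial RNA polymerase, Grsf1 an RNA-binding protein of the granules where transcripts are processed, and Nrf1 and Ppargc1a regulators of nuclear genes for mitochondrial proteins. In appetitive against aversive 3 were lower, Nrf1, Polrmt and Fastkd3 (1.69% of all genes were, and 0.116% were higher), and in appetitive against mock 4 were lower, Nrf1, Grsf1, Polrmt and Fastkd3 (1.96% of all genes were, and 0.0202% were higher). The median log2 fold change of the 33 was -3.28 in appetitive against neutral and -2.06 in appetitive against mock, where it was -0.91 and -1.45 over all tested genes. In appetitive against aversive it was 0.23 against -0.48, with 16 of the 33 negative, so that the list as a whole did not lean the way of its calls there. In the 3 comparisons without appetitive libraries edgeR called 0 of the 33, and at an unadjusted p under 0.05 it passed 10 in aversive against neutral, 9 in aversive against mock and 1 in neutral against mock, where 19.1%, 9.96% and 13.5% of all genes passed. DESeq2 called 1 higher and 9 lower in aversive against neutral (15.8% of genes with an adjusted p), 1 and 7 in aversive against mock (8.07%) and 1 and 0 in neutral against mock (7.85%). It called 0 higher and 15 lower in appetitive against neutral (28.2%), 3 and 11 in appetitive against aversive (23.3%) and 2 and 14 in appetitive against mock (27%), so that some of its calls there were higher. In aversive against neutral edgeR called 2 as lower, Mterf4 and Nsun4, when either appetitive library was left out. Each of the counts of lower genes changed when single libraries were left out, also libraries outside the comparison. Against neutral the 5 became 11 without aversive 1, 12 without aversive 3, 2 without mock 1, 3 without mock 2 or mock 3, and 0 without neutral 3. Against aversive the 3 became 7 without aversive 1 and 5 without aversive 3 or appetitive 2, but 1 without neutral 2 and 0 without mock 1, mock 2, mock 3, neutral 1 or neutral 3, and without appetitive 1 another 2 genes were called higher. Against mock the 4 became 11 without aversive 1, 10 without aversive 3 and 7 without appetitive 2, and 0 without any 1 of the mock or neutral libraries. With the replicate number as a block 0 were called in every comparison. In a fit of the 2 compared groups alone, 14 were called lower in appetitive against mock, where 3585 of 16471 tested genes were called. That fit called 0 in appetitive against neutral and in appetitive against aversive, where 0 of all tested genes were called.

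Per library, Polrmt was at 14.0, 8.10 and 35.5 CPM (counts scaled to the library's total) in mock 1 to 3, 47.9 and 28.1 in aversive 1 and 3, 0 and 0.0589 in appetitive 1 and 2, and 37.5, 31.6 and 18.3 in neutral 1 to 3 (adjusted p = 0.0203, 0.0299 and 0.0360 in edgeR for appetitive against neutral, aversive and mock). Nrf1 was at 0.0375 and 0.0589 in the appetitive libraries and at 18.7 or more in the others. Both genes were thus at or under a floor of 3 counts in the appetitive libraries, as was Fastkd3, which had no count there, and no fold change is given for them. Tfam, which packs the mitochondrial chromosome and starts its transcription, was at 0 and 0.118 CPM in the appetitive libraries and also at 0.258 in aversive 1, against 9.94 to 31.0 in the other 7. It was not called in any comparison of the main edgeR fit, where its lowest adjusted p was 0.0613, for appetitive against neutral. Some alternative fits called it lower, among them edgeR without the filter on low counts in appetitive against mock. Lrpprc, which stabilizes mitochondrial mRNAs, was at 0.113 CPM in appetitive 1, 25.0 in appetitive 2, 0.442 in aversive 1, 5.95 in aversive 3 and 13.8 to 86.7 in the other libraries. Ppargc1a was at 0.0751 and 0 in the appetitive libraries, 3.09 and 121 in the aversive libraries and 15.4 to 85.6 in the rest. The libraries in which these genes were near 0 are those with the fewest genes detected, and the part of that in the result was not tested.

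The nuclear partners of the mitochondrial proteins were taken by symbol prefix. Of 90 genes for nuclear subunits and, through the shared prefix Ndufa, some assembly factors of the respiratory chain, 89 were tested. In appetitive against neutral 1 was lower, Ndufa4l2, a relative of a complex IV subunit, and 0 were called in the other 5 comparisons by edgeR, where 9 (aversive against neutral), 2 (appetitive against aversive), 1 (aversive against mock), 15 (appetitive against mock) and 32 (neutral against mock) passed at an unadjusted p under 0.05. Over all genes the shares that passed were 19.1%, 20%, 9.96%, 23.8% and 13.5% in the same order, so that 32 of 89 was above its background and 2 of 89 below. DESeq2 called 4, 2, 0, 3 and 5 in these 5 comparisons, where it called 15.8%, 23.3%, 8.07%, 27% and 7.85% of the genes with an adjusted p. The median log2 fold change of the 89 was 0.87 in aversive against mock, 1.21 in appetitive against mock and 1.01 in neutral against mock, above the -0.13, -1.45 and 0.08 of all tested genes, and -0.31 and -0.07 in aversive and appetitive against neutral. Of 78 mitoribosomal protein genes, all tested, 4 were lower in appetitive against neutral (Mrps27, Mrps30, Mrpl47 and Mrps31), 1 in appetitive against aversive (Mrps30) and 1 in appetitive against mock (Mrps27), with 0 higher. DESeq2 called 1 higher and 7 lower, 1 and 5, and 12 and 5 in these 3 comparisons, so that in appetitive against mock most of its calls were higher. The median log2 fold change of the 78 was -0.23, 0.42 and 0.98 there, where all tested genes had -0.91, -0.48 and -1.45. These counts also changed when single libraries were left out. Without appetitive 2 they became 22, 17 and 20, while without neutral 3 or without any 1 mock library they were 0 in each of the 3. The background shares of genes called lower in these comparisons were 5.23%, 1.69% and 1.96%.

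The ratio of mitochondrial to nuclear counts for the respiratory chain differed between libraries. The mitochondrial side almost entirely lacks mt-Co2, mt-Co3, mt-Atp6, mt-Atp8, mt-Nd3 and mt-Nd4l, while the nuclear list includes subunits of the same complexes. These ratios can therefore be set beside each other, but they do not give the balance of the mitochondrial and nuclear genomes. The mitochondrial mRNAs had 2.28, 2.13 and 1.81 times the counts of the 90 nuclear respiratory genes in mock 1 to 3, 2.31 and 2.40 times in aversive 1 and 3, 2.67 and 1.04 times in appetitive 1 and 2, and 2.88, 1.25 and 1.12 times in neutral 1 to 3. The aversive libraries stood just above the mock libraries, and appetitive 2, neutral 2 and neutral 3 were below all others. The nuclear respiratory genes themselves took 0.962% to 1.33% of all counts in mock and 1.71% to 3.05% in the 7 tagged libraries, which thus all lay above the mock libraries. The mitochondrial rRNAs had 7.52, 8.14 and 4.62 times the counts of the 78 mitoribosomal protein genes in mock, 12.3 and 23.1 times in aversive, 17.7 and 0.524 times in appetitive, and 3.09, 1.96 and 1.40 times in neutral libraries. Here the aversive libraries stood above and the neutral libraries below all mock libraries. The mitoribosomal protein genes took 0.443% to 0.557% of all counts in the neutral libraries and 0.531% in appetitive 2, and 0.180% to 0.394% in the other 6.

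**Figure D5:**
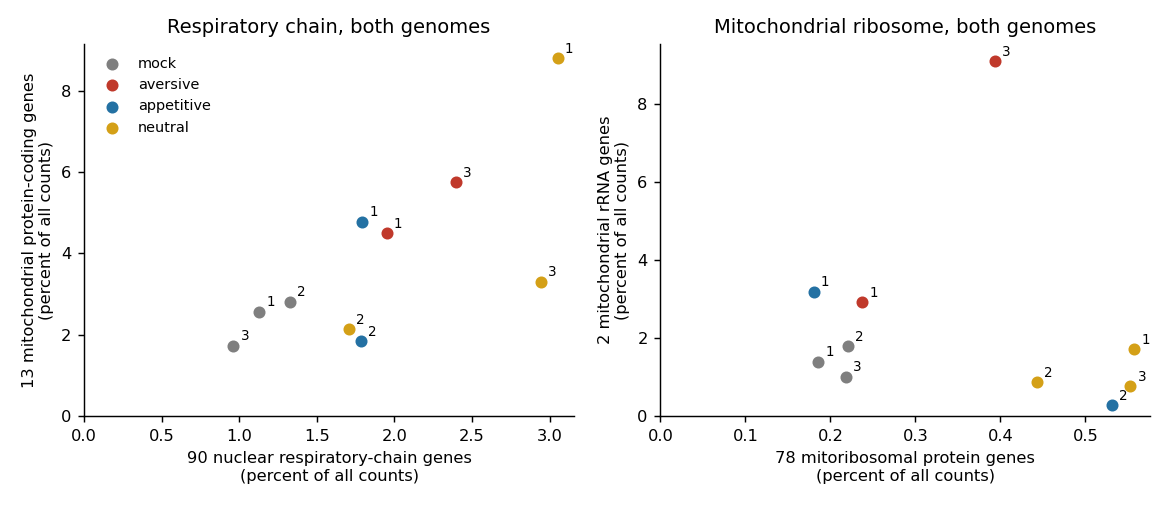
Share of all counts (percent) of the mitochondrial protein-coding genes against the 90 nuclear respiratory-chain genes (left) and of the mitochondrial rRNAs against the 78 mitoribosomal protein genes (right), 1 point per library with its replicate number. The 3 mock points lie at the low end of the nuclear respiratory axis (0.962% to 1.33%), and the neutral points and appetitive 2 lie at the high mitoribosomal end with 0.278% to 1.72% rRNA.

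Markers of other cells and of nuclear RNA also differed between the libraries. The oligodendrocyte markers, all 6 of them detected in every library, summed to 7.23% to 31.4% of the counts in mock, 3.12% to 30.2% in aversive, 9.002% to 38.5% in appetitive and 0.923% to 4.49% in neutral libraries. Aversive 3, the library with the largest mitochondrial share, had an Mbp share of 1.09%, and appetitive 2, with the smallest, had 0.983%. The 8 transcripts kept in the nucleus, Malat1 among them, summed to 1.24% of the counts in aversive 3 and 0.952% in appetitive 2, the highest values of the 10, and to 0.0547% to 0.748% in the others. Aversive 1 was at 0.189% and the mock libraries at 0.0547% to 0.171%. Both aversive libraries thus lay above mock for the sum of these transcripts, most of which was Malat1. The sum of the 4 choroid plexus markers also lay above mock, at 0.879% and 0.997% in aversive and 0.0954% to 0.486% in mock libraries. Most of it was Ttr, at 0.865% and 0.971% in aversive and 0.0917% to 0.458% in mock libraries. Folr1, Kcne2 and Clic6 each overlapped between these groups. The 10 neuronal markers summed to 0.0524% and 0.0744% in aversive libraries, above the 0.0218% to 0.0440% of the mock libraries. They did not move together, as Snap25, Rbfox3, Nefl and Stmn2 were above mock in both aversive libraries and Neurod6 was below. The others overlapped, with Syt1 and Map2 below every mock library in aversive 1. Snap25 alone took 0.0311% in aversive 1. The part of these values in the mitochondrial share was not tested.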

How the data were processed

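RNA-seq counts of 10 libraries were analysed, with groups taken from the labels. By the study's methods, the authors mapped the first 40 bases of each read with STAR to mm10 (GRCm38) and counted reads per gene without strand using featureCounts, and they deposited these raw counts per gene. Tool versions and the treatment of reads that map to several places are not given in the sources used here. Of 53379 gene IDs, 53274 matched GENCODE M21, which also supplied the transcript sequences. Totals ranged from 16968588 to 67650693 counts.

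The members and the gene lists were chosen with earlier results of these data known. All rRNA and protein-coding members are named, with the 3 highest and 3 lowest tRNA genes by summed counts (ties by symbol) and any tRNA called. Of the nuclear lists, Tfam, Polrmt, Lrpprc and Ppargc1a and up to 3 called genes of smallest p are named, and further called genes where a count was 5 or fewer were named after their values were seen. Shares are counts of members divided by all counts. Levels are RPKM or CPM computed from the deposited counts. The 40-base windows were compared with annotated transcripts only, since no genome sequence was used.

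Comparisons used edgeR 4.0.16 (R 4.3.3), with TMM scaling, filterByExpr, 1 quasi-likelihood fit of 4 groups and Benjamini-Hochberg adjustment over 19754 genes, called at an adjusted p under 0.05. The SE is the log2 fold change divided by the square root of F. The procedure was tested on simulated counts for aversive against neutral (20536 genes tested, 44 of 194 changed genes and 2 unchanged genes called). Alternatives were DESeq2 1.42.0, other scalings, filters and denominators, a replicate block, 2 groups alone and leaving out each library.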

Additional observations from a re-analysis of the deposited data

How the results depend on the processing

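The mean mitochondrial share changed with the denominator and with single libraries. It was 5.59% in mock without the 10 top nuclear genes, 2.43% in mock and 5.67% in aversive with protein-coding genes only, and 9.27% in appetitive with TMM library sizes. Leaving out 1 library gave 3.36% to 4.30% in mock, 7.46% to 14.9% for the aversive, 2.13% to 7.997% for the appetitive and 3.55% to 7.31% for the neutral libraries, the lowest of the last without neutral 1. With mt-Rnr1 against the protein-coding genes in place of all rRNA, the mean part was 8.41% for mock, 18.1% for aversive, 6.96% for appetitive and 7.19% for neutral libraries. By countable windows mt-Co1 took place 3, mt-Nd1 4, mt-Nd4 5, mt-Rnr1 6 and mt-Nd2 7.

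The count of 0 called members changed under some settings. With no filter on low counts, 3 were called in aversive against neutral and in appetitive against neutral, and 2 in aversive against mock and in appetitive against mock. DESeq2 called 2 in each of the comparisons with neutral of aversive and appetitive libraries. Leaving out 1 library gave 0 to 2 in appetitive against neutral (2 without appetitive 2, mt-Tv and mt-Rnr2), 0 to 1 in appetitive against aversive (mt-Rnr1, lower, without appetitive 1) and 0 elsewhere. The cause was not tested. Of 1500 log2 fold changes of named genes under the alternatives, 140 turned sign without a call in either fit, 95 of them in comparisons with appetitive libraries, 17 became called and 0 called values turned. Scaling by library size alone moved the median of all tested genes from -1.45 to -1.93 in appetitive against mock and from -0.91 to -1.45 in appetitive against neutral, and the median of the 23 members from 1.56 to 0.68 and from 1.47 to 0.29.

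Deviations from the group means correlated at -0.0371 to 0.1645 in libraries with the same number and at -0.1645 to 0.1165 in other pairs. Between mock and neutral libraries the same-numbered pairs were at 0.055 to 0.1352 and all other pairs were negative. Deviations within a group of 2 or 3 libraries sum to 0, so these values cannot settle whether the numbers pair the libraries. With the replicate number as a block, 0 members were called in each of the 6 comparisons. The differences of the mean share within shared numbers were 3.84 percentage points for aversive against neutral, -1.71 for appetitive against neutral, 7.79 for aversive against mock, 0.761 for appetitive against mock and 2.09 for neutral against mock. For the rRNA part the block gave 32.6, 3.83, 14.3, -10.6 and -15.5 percentage points. The appetitive and aversive libraries share only number 1, a single pair with no spread, in which the share was 7.997% in appetitive and 7.46% in aversive, the opposite order to the group means. Counting depth limits mainly the tRNAs, at a floor of 0.0443 to 0.177 CPM.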
